A study of Mus musculus with 12 samples.

Results

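The 9 genes described here encode proteins of the insulin-producing beta cell that the immune system attacks in type 1 diabetes: Ins1, Ins2, Gad1, Gad2, Ptprn, Ptprn2, Slc30a8, G6pc2 and Iapp. They were chosen by name, and all 9 were found by their Ensembl identifiers among 50600 gene identifiers. Their transcripts were measured by sequencing of polyadenylated RNA from medullary thymic epithelial cells (mTECs) of mice aged 6 to 8 weeks. The cells were separated by their surface MHC class II into a high fraction (mTEC hi) and a low fraction (mTEC lo), with 6 libraries each. In each cell type 2 libraries came from Psmb11-deficient mice, labelled B6.B6CB-Psmb11tm1Smta (Psmb11-/-), and 2 from WT mice, labelled B6.B6CB-Psmb11tm1Smta (Psmb11+/+). Psmb11 encodes a proteasome subunit of the thymic cortical epithelium. For the other 2 libraries of each cell type the labels contradict each other, since title and strain name different genotypes. These 4 libraries were therefore used to compare cell types, and not in the main genotype tests. Nothing in the labels says that replicate libraries are from different mice or pools, and all p-values refer to the spread among the libraries, part of which may be technical.

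Developing T cells that bind the body's own proteins too strongly in the thymus are deleted or turned into regulatory T cells. mTECs make this possible for organ-specific proteins by transcribing genes that are otherwise restricted to single tissues, with each such gene typically active in a small part of the cells at a time. Aire, a regulator of transcription found in mature mTECs with high MHC class II, is needed for many of these transcripts, and insulin is a classical example. In mice, insulin is encoded by Ins1 and Ins2, and thymic insulin transcripts are known to come mainly from Ins2.

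Each library held between 38791960 and 86793594 reads in genes. CPM below are read counts scaled to library size by the TMM method, and serve to compare libraries. TPM are the deposited values per transcript length, and serve to compare genes. Psmb11 itself stood at 0.85 to 1.30 CPM in Psmb11-deficient and 7.53 to 10.3 CPM in WT mTEC hi libraries, and at 1.17 to 1.63 CPM in Psmb11-deficient and 7.51 to 12.2 CPM in WT mTEC lo libraries. In the libraries with conflicting labels, Psmb11 was at 1.12 CPM (mTEC hi) and 1.25 CPM (mTEC lo) under a knockout title and at 8.15 CPM (mTEC hi) and 7.10 CPM (mTEC lo) under a WT title. Over all 12 libraries it lay between 0.85 and 1.63 CPM under knockout titles and between 7.10 and 12.2 CPM under WT titles, so that in these 4 libraries the level of Psmb11 went with the title and against source name and strain. The level was not used to assign a genotype. Aire averaged 1977 ± 185 CPM in mTEC hi against 17.6 ± 5.35 CPM in mTEC lo (SD over 6 libraries of each type). The epithelial markers Epcam, Krt5 and Krt14 were present in both cell types and lower in mTEC hi. Epcam stood at 619.4 ± 16.8 CPM in mTEC hi against 846.8 ± 60.1 CPM in mTEC lo. Krt5 stood at 715.9 ± 84.6 and 4514 ± 422 CPM, and Krt14 at 274.1 ± 17.7 and 2058 ± 165 CPM, in the same order. Cldn4 (302.5 ± 46.2 against 164.4 ± 19.1 CPM) and Cd80 (146.4 ± 8.09 against 7.94 ± 0.862 CPM) were higher in mTEC hi. In bulk libraries fewer cells that transcribe a gene and less RNA per cell cannot be told apart.

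The 2 mouse insulin genes are near-copies, and the stretch that encodes the insulin B chain, a major target of T cells in diabetes-prone mice, is printed to show how their reads can be told apart. It covers codons 25 to 54 and lies in a single coding exon in both genes. In Ins2 this is chr7:142679372-142679461 on the minus strand and in Ins1 chr19:52264696-52264785 on the plus strand (GRCm38, GENCODE M21). Bases that differ between the copies are in capitals.
Ins2: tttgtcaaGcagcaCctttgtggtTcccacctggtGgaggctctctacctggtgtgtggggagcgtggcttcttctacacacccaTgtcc
Ins1: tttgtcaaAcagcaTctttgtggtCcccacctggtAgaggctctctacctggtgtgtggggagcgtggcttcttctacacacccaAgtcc
The copies differ at 5 of 90 bases, written with the Ins2 base first and counted from 1 at the first base of the stretch: G9A, C15T, T25C, G36A and T86A. Of these, 3 are at the last place of a codon. Over the whole coding sequence (330 bases in Ins2 and 324 in Ins1) the copies were identical at 300 of 330 aligned positions (90.9%), and the longest run that the spliced transcripts share was 56 bases. In the deposited read counts, reads that map to several places are tallied apart from the genes. Reads that fit both copies equally well would then count for neither gene, and the split between Ins1 and Ins2 would rest on the others. How many such reads each copy gave is not known, so the split is uncertain to that extent. No source used here says how the deposited TPM treat such reads.

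The autoantigens did not share a single pattern across the cell types. Ins2, Slc30a8, G6pc2 and Gad2 were strongly higher in mTEC hi and near the limit of detection in mTEC lo. Ins1 was read in mTEC hi libraries alone. Gad1 was higher in mTEC hi but was clearly detected in mTEC lo as well. Ptprn was modestly higher, Ptprn2 was lower in mTEC hi, and Iapp was abundant in both cell types. In the fit over all genes 8 of the 9 passed the low-count filter, and all 8 passed the test, 6 higher and 2 lower in mTEC hi (edgeR quasi-likelihood test, Benjamini-Hochberg adjusted p under 0.05). Of all 23923 genes tested, 82.1% passed in either direction, 44.2% higher and 38.0% lower, so that passing the test does not by itself set these genes apart. Ins2, Gad2, Slc30a8 and G6pc2 passed the filter only through their mTEC hi libraries. Their mTEC lo libraries held at most 14, 6, 3 and 1 reads, respectively. For these genes the filter itself required a higher level in mTEC hi, so their calls are no separate support. The CPM ranges of the cell types did not overlap for 8 of the 9, Iapp being the exception, beside 68.7% of the genes tested. The sizes of the changes are given below, beside a median log2 fold change of 0.08 over all genes tested.

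**Figure D1:**
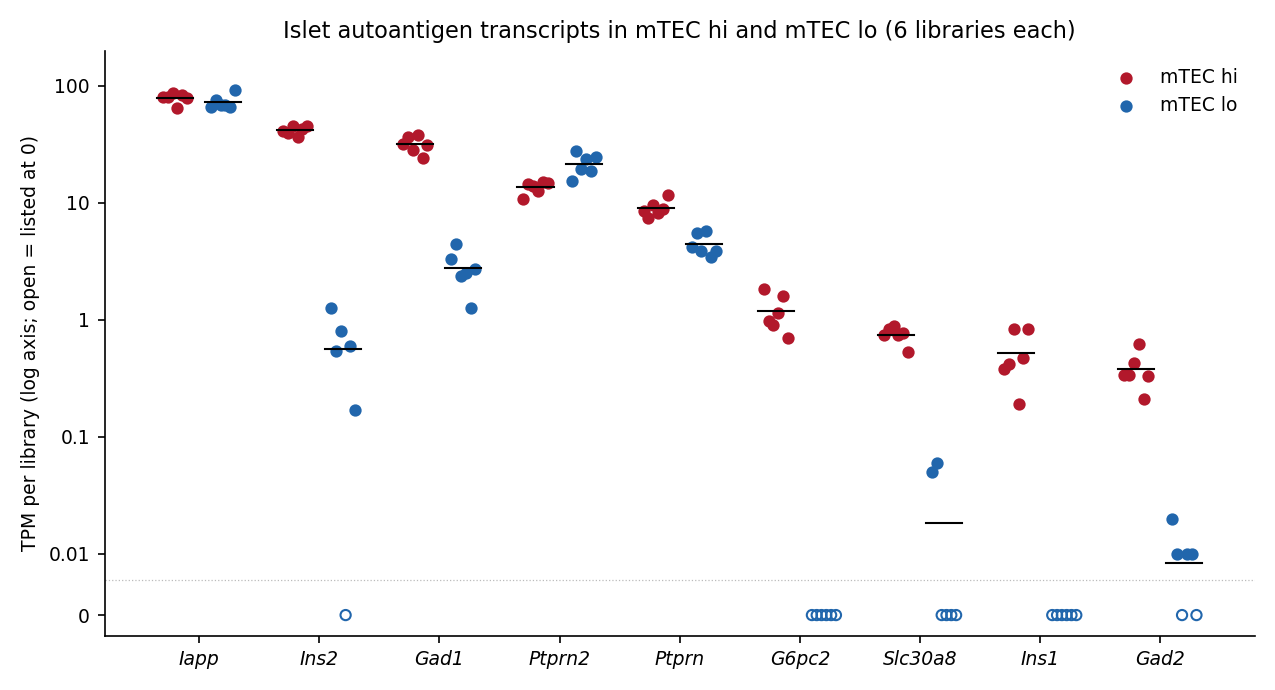
Level of each islet autoantigen in TPM (vertical log axis) in every mTEC hi library (red, left) and mTEC lo library (blue, right), ordered by the mTEC hi mean. Bars are means over 6 libraries and open circles on the base line are libraries listed at 0. Iapp lies near the top in both cell types (means of 79.4 and 73.2 TPM), while G6pc2 and Ins1 are listed at 0 in every mTEC lo library.

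Insulin is the peptide hormone that lowers blood glucose, and Ins2 (chr7:142678656-142743381, minus strand) was the more abundant of the insulin genes. Its level in mTEC hi had a minimum of 7.43, a median of 9.04 and a maximum of 9.56 CPM, and in mTEC lo a minimum of 0.0363, a median of 0.126 and a maximum of 0.217 CPM. Every mTEC hi library lay far above every mTEC lo library. The log2 fold change was 6.14 (SE 0.219, adjusted p = 4.68e-14), and 5.06% of the genes tested had a higher one. The low level in mTEC lo rested on 43 reads in 6 libraries, each with at least 2.

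Ins1 (chr19:52264297-52265476, plus strand) gave 9 to 23 reads in each mTEC hi library, 86 in all, and no read in any mTEC lo library. It fell under the low-count filter. Against a floor of 3 reads over the mTEC lo libraries, the mTEC hi level of Ins1 was at least 25.4-fold higher (exact two-sided permutation test of the CPM, p = 0.00216, the smallest that 6 against 6 libraries can give). Of the 3491 insulin reads in mTEC hi, 86 were from Ins1, a share of 2.46% (exact binomial 95% interval 1.98% to 3.03%, counting error only). The share ranged from 1.26% to 4.69% between libraries. On the TPM scale the ratio of Ins2 to Ins1 had a minimum of 54.1, a median of 92.8 and a maximum of 191.3 over the 6 mTEC hi libraries. In mTEC lo no insulin read came from Ins1, and with 43 insulin reads that count of 0 allows a share of up to 6.98%.

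The upstream sequences of Ins1 and Iapp are shown because these genes are at opposite ends of the group: Ins1 was not read in mTEC lo, and Iapp was the most abundant autoantigen there. Each is the 250 bases before the RefSeq start site (GRCm38.p6), chr19:52264047-52264296 for Ins1 and chr6:142298175-142298424 for Iapp, both on the plus strand. Capitals mark CATCTG, the core of the E boxes through which basic helix-loop-helix factors are known to bind insulin promoters.
Ins1: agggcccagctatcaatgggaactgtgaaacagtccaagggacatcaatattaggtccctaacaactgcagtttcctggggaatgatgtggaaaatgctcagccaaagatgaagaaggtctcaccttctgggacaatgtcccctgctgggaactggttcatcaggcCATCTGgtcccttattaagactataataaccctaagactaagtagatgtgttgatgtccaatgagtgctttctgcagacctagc
Iapp: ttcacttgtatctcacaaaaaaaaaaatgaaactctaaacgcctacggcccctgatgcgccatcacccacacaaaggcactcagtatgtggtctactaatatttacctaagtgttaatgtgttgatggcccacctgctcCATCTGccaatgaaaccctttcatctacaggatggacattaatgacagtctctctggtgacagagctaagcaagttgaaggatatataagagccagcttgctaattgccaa
The motif begins 84 bases before the start in Ins1 and 111 bases before it in Iapp. The core was also found in the Gad2 window and in that of the downstream G6pc2 start, and in none of the Gad1, Ptprn and Ptprn2 windows. Counting both strands, CATCTG is present in 14.4% of the 32851 RefSeq promoters of this length. The longer form GCCATCTG, which contains the core, was found in the Ins1 window and in no other window of the autoantigens, and 1.11% of all promoters hold it. RefSeq windows were at hand for 7 of the 9 genes, Ins2 and Slc30a8 not among them. The Ins1 window holds no CG dinucleotide, and those of Iapp and of the upstream G6pc2 start hold 3. The window of the downstream G6pc2 start holds 5 and the Ptprn windows hold 10 and 12. Gad2, Ptprn2 and Gad1 windows hold 13, 15 and 17, beside a median of 6 over all promoters. These letters describe the windows and were not tested against the levels.

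Gad1 and Gad2 encode the glutamate decarboxylases, which make the neurotransmitter GABA in neurons and islets, and Gad2 protein is the form that human diabetic autoantibodies mostly recognise. Gad1 (chr2:70553072-70602014, plus strand) had a minimum of 44.0, a median of 48.8 and a maximum of 51.2 CPM in mTEC hi, and a minimum of 3.54, a median of 5.21 and a maximum of 5.84 CPM in mTEC lo. The cell types were well separated, and Gad1 varied the least between mTEC hi libraries of all 9 genes in CPM (coefficient of variation 5.84%). Its log2 fold change was 3.26 (SE 0.0891, adjusted p = 1.39e-15).

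Gad2 (chr2:22622205-22693874, plus strand) gave fewer reads, with a minimum of 0.80, a median of 1.31 and a maximum of 1.97 CPM in mTEC hi. In mTEC lo it gave 14 reads in all, at least 1 in each library, and a maximum of 0.0931 CPM. The cell types did not overlap, and the log2 fold change was 5.0 (SE 0.349, adjusted p = 4.64e-10). Per length, Gad1 exceeded Gad2 in mTEC hi by 61.2 to 114.8 times in TPM. An antisense transcript, Gad1os, overlaps the Gad1 locus on the other strand but shares none of its exon bases, and stood at 0.184 ± 0.117 CPM in mTEC hi against 0.0492 ± 0.0367 CPM in mTEC lo (SD over 6 libraries of each type).

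Ptprn and Ptprn2 encode related transmembrane proteins of the dense-core vesicle, the granule in which neuroendocrine cells store hormones, and both belong to the receptor tyrosine phosphatase family. Here the relatives moved in opposite directions. Ptprn (chr1:75247027-75264502, minus strand) had a minimum of 11.9, a median of 13.6 and a maximum of 16.8 CPM in mTEC hi, against a minimum of 6.87, a median of 7.94 and a maximum of 11.7 CPM in mTEC lo. The cell types were adjacent without overlapping, and the log2 fold change was 0.66 (SE 0.123, adjusted p = 8.53e-05). Against a required change of 1.5-fold the call was lost (adjusted p = 0.181).

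Ptprn2 (chr12:116485720-117276849, plus strand) had a minimum of 24.8, a median of 30.05 and a maximum of 31.9 CPM in mTEC hi, and a minimum of 40.1, a median of 54.9 and a maximum of 64.4 CPM in mTEC lo. Every mTEC hi library was below every mTEC lo library. The log2 fold change was -0.88 (SE 0.0801, adjusted p = 1.70e-08). Of the exon bases of Ptprn, 189 of 4249 (4.45%) lie opposite those of Gm28294, an antisense transcript, and the libraries do not mark strand, so reads there cannot be told apart. Of the Ptprn reads in the strand columns, 13.2% were missing from the column that ignores strand, which was the one tested. In mTEC hi, Gm28294 had 413 and 421 reads in the strand columns and 17 in the column that ignores strand. In mTEC lo it had 202 and 236 reads in the strand columns and 4 in the other.

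Slc30a8 encodes the zinc transporter that loads insulin granules, and G6pc2 a glucose-6-phosphatase catalytic subunit that is largely restricted to islets and is a target of cytotoxic T cells in diabetes-prone NOD mice. Slc30a8 (chr15:52295553-52335798, plus strand) had a minimum of 0.932, a median of 1.05 and a maximum of 1.26 CPM in mTEC hi. In mTEC lo 4 of 6 libraries gave no read, and the other 2 gave 5 reads together. The log2 fold change was 6.04 (SE 0.496, adjusted p = 4.26e-09), and it was 6.93 without the mTEC lo library with conflicting labels and replicate number 1, which held 3 of those reads.

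G6pc2 (chr2:69211073-69227841, plus strand) had a minimum of 0.724, a median of 0.952 and a maximum of 1.197 CPM in mTEC hi, from 370 reads. In mTEC lo it gave a single read over all 6 libraries. The ratio of the pooled levels was 327.8 (exact 95% interval 58.5 to 12981, counting error only). The fitted log2 fold change was 7.60 (SE 0.501, adjusted p = 2.06e-10), and 8.88 without the library that held the read, again the mTEC lo library with conflicting labels and replicate number 1. Of the genes tested, 1.66% had a higher fold change than G6pc2 and 5.39% a higher one than Slc30a8.

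Iapp encodes islet amyloid polypeptide, a hormone that beta cells secrete together with insulin, but its levels did not follow those of the insulin genes. Iapp (chr6:142298423-142303961, plus strand) had a minimum of 27.5, a median of 34.3 and a maximum of 35.8 CPM in mTEC hi, and a minimum of 35.6, a median of 37.0 and a maximum of 45.2 CPM in mTEC lo. The ranges overlapped narrowly, with the highest mTEC hi library just above the lowest mTEC lo library. The log2 fold change was -0.21 (SE 0.0717, adjusted p = 0.0120), and it depended on the scaling: with library size alone it was 0.07 (adjusted p = 0.374), where the median over all genes tested moved to 0.37. With RLE size factors, DESeq2, the RSEM counts or the second strand column the value lay between -0.15 and -0.14 and did not pass. In TPM Iapp averaged 79.4 ± 7.45 in mTEC hi and 73.2 ± 9.68 in mTEC lo (SD, n = 6 each), with overlapping ranges.

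Iapp lies inside Slco1a5, an organic anion transporter gene on the other strand, with no exon bases in common. Slco1a5 averaged 27.5 ± 2.35 CPM in mTEC hi against 33.01 ± 4.17 CPM in mTEC lo. Its part in the Iapp counts was not tested, and the libraries do not mark strand.

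**Figure D2:**
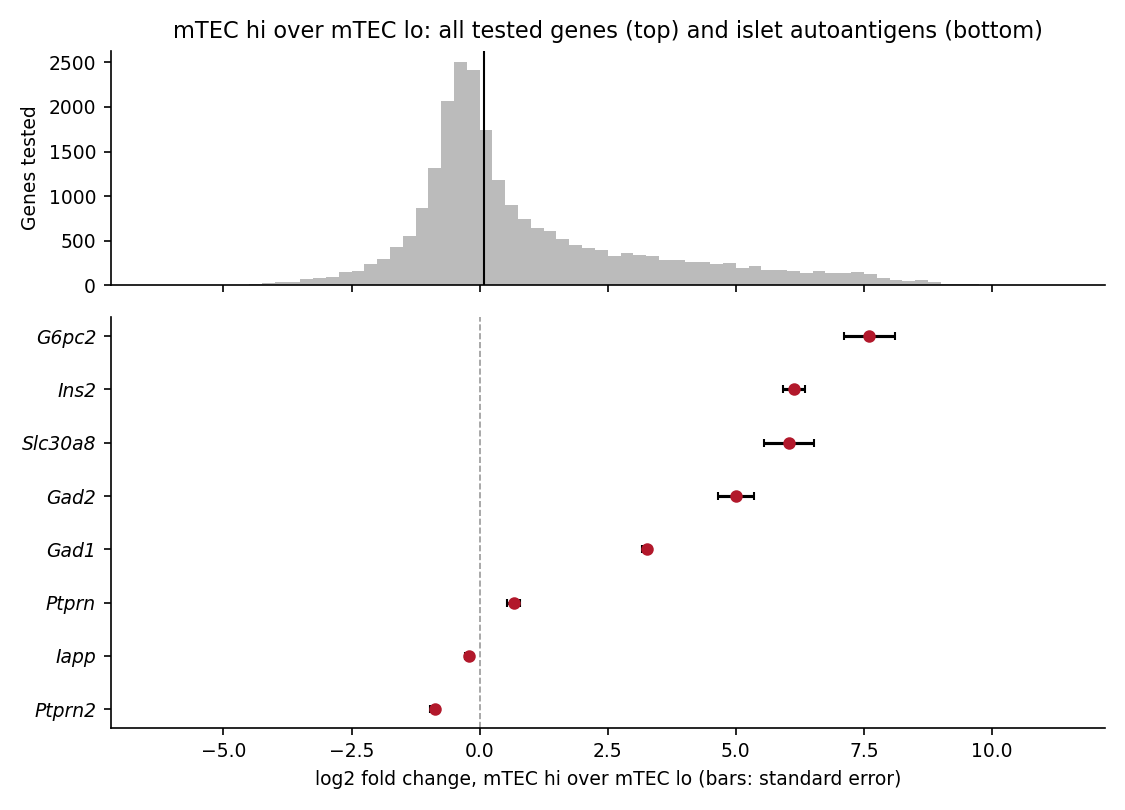
Top, the number of genes (vertical axis) by log2 fold change of mTEC hi over mTEC lo for all 23923 genes tested, with the median of 0.08 as a line. Bottom, the fold changes of the 8 islet autoantigens that passed the low-count filter, with standard errors as bars: G6pc2, Ins2, Slc30a8 and Gad2 lie at 5.0 or more, and Iapp and Ptprn2 lie below 0.

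Ordered by level in mTEC hi, Iapp came first at 79.4 TPM, followed by Ins2 at 41.8 ± 3.61 TPM and Gad1 at 31.7 ± 5.20 TPM. The Ins2 and Gad1 ranges overlapped, with Ins2 higher in 5 of 6 libraries. Ptprn2 (13.6 ± 1.61 TPM) and Ptprn (9.04 ± 1.47 TPM) came next and overlapped in range, although Ptprn2 was the higher in 6 of 6 libraries. The lowest tier held G6pc2 (1.195 ± 0.438 TPM), Slc30a8 (0.75 ± 0.120 TPM), Ins1 (0.523 ± 0.263 TPM) and Gad2 (0.378 ± 0.138 TPM), and each neighbouring pair in this tier overlapped. In mTEC lo Iapp was again first at 73.2 TPM and Ptprn2 second at 21.5 ± 4.47 TPM. There Ptprn (4.46 ± 0.953 TPM) and Gad1 (2.78 ± 1.05 TPM) overlapped, Ins2 was at 0.562 ± 0.451 TPM and listed at 0 in 1 library, and none of the other 4 exceeded a mean of 0.02 TPM.

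The make-up of the autoantigen transcripts differed between the cell types. The 9 genes together gave 178.4 ± 8.35 TPM in mTEC hi and 102.6 ± 13.3 TPM in mTEC lo. Iapp made up 44.4 ± 2.68% of this sum in mTEC hi and 71.4 ± 3.19% in mTEC lo. Ins2 made up 23.4 ± 1.18% in mTEC hi and 0.582 ± 0.502% in mTEC lo. Gad1 made up 17.9 ± 3.54% in mTEC hi and 2.69 ± 0.925% in mTEC lo. Ptprn2 went the other way, with 7.64 ± 0.799% in mTEC hi and 20.9 ± 2.59% in mTEC lo. The range of each of these 4 shares in mTEC hi did not overlap its range in mTEC lo.

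Other genes of the islet were set beside these 9, on lists described by counts and medians without a test of the list. The counts on every list are to be read beside the 44.2% of all genes tested that passed higher and the 38.0% that passed lower. The median log2 fold change over all genes tested was 0.08. A gene near 0 in mTEC lo passed the filter only through mTEC hi, and such a call is no separate support. Islet transcription factors were mixed: of 13, 8 passed the test higher in mTEC hi, 4 passed lower and 1 did not pass (median log2 fold change 0.59). Pdx1 and Nkx6-1, regulators of beta cell identity, were higher in mTEC hi by 5.50 and 5.16 on the log2 scale, from low levels of 1.26 ± 0.219 and 0.700 ± 0.210 CPM in mTEC hi. In mTEC lo they had 9 and 6 reads in all, so both passed the filter only through mTEC hi. Isl1, a factor of all islet endocrine cells, was lower, at 26.5 ± 1.04 CPM in mTEC hi against 128.9 ± 7.15 CPM in mTEC lo. Mafa, an activator of the insulin gene in beta cells, was at 13.3 ± 1.30 CPM in mTEC hi against 17.2 ± 3.48 CPM in mTEC lo.

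Of 14 genes of beta cell secretion and glucose sensing, 7 passed higher, 6 lower and 1 did not pass (median 0.40). Ucn3, a peptide of mature beta cells, and Slc2a2, the glucose transporter of mouse beta cells, were higher in mTEC hi by 4.31 and 4.26 on the log2 scale. With 52 and 47 reads in all in mTEC lo, these genes too passed the filter only through mTEC hi. Lower in mTEC hi, as was Ptprn2, were the granule proteins Scg2, Chgb, Scg5 and Scg3. Ptprn, also of the dense-core vesicle, was higher, and so on this list was Sytl4 (log2 fold change 2.26). Scg2 was at 19.4 ± 3.19 CPM in mTEC hi and 65.6 ± 8.44 in mTEC lo, and Chgb at 18.0 ± 2.83 in mTEC hi and 56.2 ± 9.66 in mTEC lo. The prohormone convertases, which cut proinsulin, split: Pcsk2 had 7.46 ± 0.866 CPM in mTEC hi and 2.47 ± 0.539 in mTEC lo, and passed higher, while Pcsk1 had 5.06 ± 0.418 CPM in mTEC hi and 6.99 ± 0.615 in mTEC lo, and passed lower. Isl1, Mafa, Scg2, Chgb, Scg5, Scg3, Sytl4, Pcsk2 and Pcsk1 were singled out after their values were seen.

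Among 5 other islet hormones, 4 passed higher and 1 lower in mTEC hi (median 2.19). Ppy, pancreatic polypeptide, had 72.1 TPM in mTEC hi and 1.70 TPM in mTEC lo, and Pyy, peptide YY, had 157.8 TPM in mTEC hi and 6.48 TPM in mTEC lo. Sst, somatostatin, had 87.8 TPM in mTEC hi and 51.5 TPM in mTEC lo. Per length, the means of Pyy and Sst exceeded those of Ins2 and Iapp in mTEC hi, though Sst (SD 13.02 TPM) and Iapp differed by less than the spread between libraries. Gcg, glucagon, was at 40.7 TPM in mTEC hi, near the Ins2 mean of 41.8 TPM, and at 7.56 TPM in mTEC lo. Ghrl, ghrelin, was the hormone that was lower in mTEC hi (log2 fold change -0.64).

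All 4 other reported islet autoantigens were lower in mTEC hi (median -1.77). Tspan7, a tetraspanin, stood at 5.37 ± 0.660 CPM in mTEC hi against 36.9 ± 3.51 CPM in mTEC lo. Sox13, a transcription factor, stood at 6.02 ± 0.327 CPM in mTEC hi and 24.5 ± 2.96 in mTEC lo. Chga, chromogranin A, a source of peptides for diabetogenic helper T cells in NOD mice, stood at 71.4 ± 4.53 CPM in mTEC hi and 208.8 ± 45.4 in mTEC lo. Per length this was 64.6 TPM in mTEC hi, between Iapp and Ins2, and 151.9 TPM in mTEC lo, above all 9 genes. Ica1 stood at 14.6 ± 1.32 CPM in mTEC hi and 18.4 ± 1.38 in mTEC lo (log2 fold change -0.34), and its TPM means were 13.6 in mTEC hi and 13.2 in mTEC lo. The dependence on scaling seen for Iapp was not examined for the genes on the lists, so small changes such as that of Ica1 are less firm.

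Relatives of the 9 genes by family included 19 genes, of which 9 passed higher and 10 lower in mTEC hi (median -0.17). G6pc, the liver and kidney counterpart of G6pc2, was higher in mTEC hi by 6.04 on the log2 scale, while G6pc3, the widely expressed form, was lower (-0.84). Slc30a3, the zinc transporter of synaptic vesicles, was higher by 6.10, and Slc30a5 and Slc30a7, transporters of the secretory pathway, changed by -0.53 and -0.20. G6pc and Slc30a3 had 26 and 13 reads in all in mTEC lo, and passed the filter only through mTEC hi. Calca and Calcb, relatives of Iapp in the calcitonin family, were higher in mTEC hi, with Calca at 121.4 ± 8.38 CPM in mTEC hi and 3.51 ± 0.502 in mTEC lo and Calcb at 411.5 ± 21.6 CPM in mTEC hi and 16.6 ± 2.36 in mTEC lo. Csad and Gadl1, relatives of the glutamate decarboxylases, changed by -1.63 and -1.59. In TPM, however, Gadl1 was not lower in mTEC hi, at 3.09 ± 0.605 against 2.60 ± 0.534 in mTEC lo. Ptpre and Ptpra, other receptor tyrosine phosphatases, changed by -0.47 and -0.62. The genes named here beyond Slc30a3 and G6pc were singled out after their values were seen. Of 4 regulators of antigen display, Aire (6.84) and Fezf2 (1.48) were higher, Chd4 was lower (-0.41) and Prdm1 did not pass (-0.22).

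**Figure D3:**
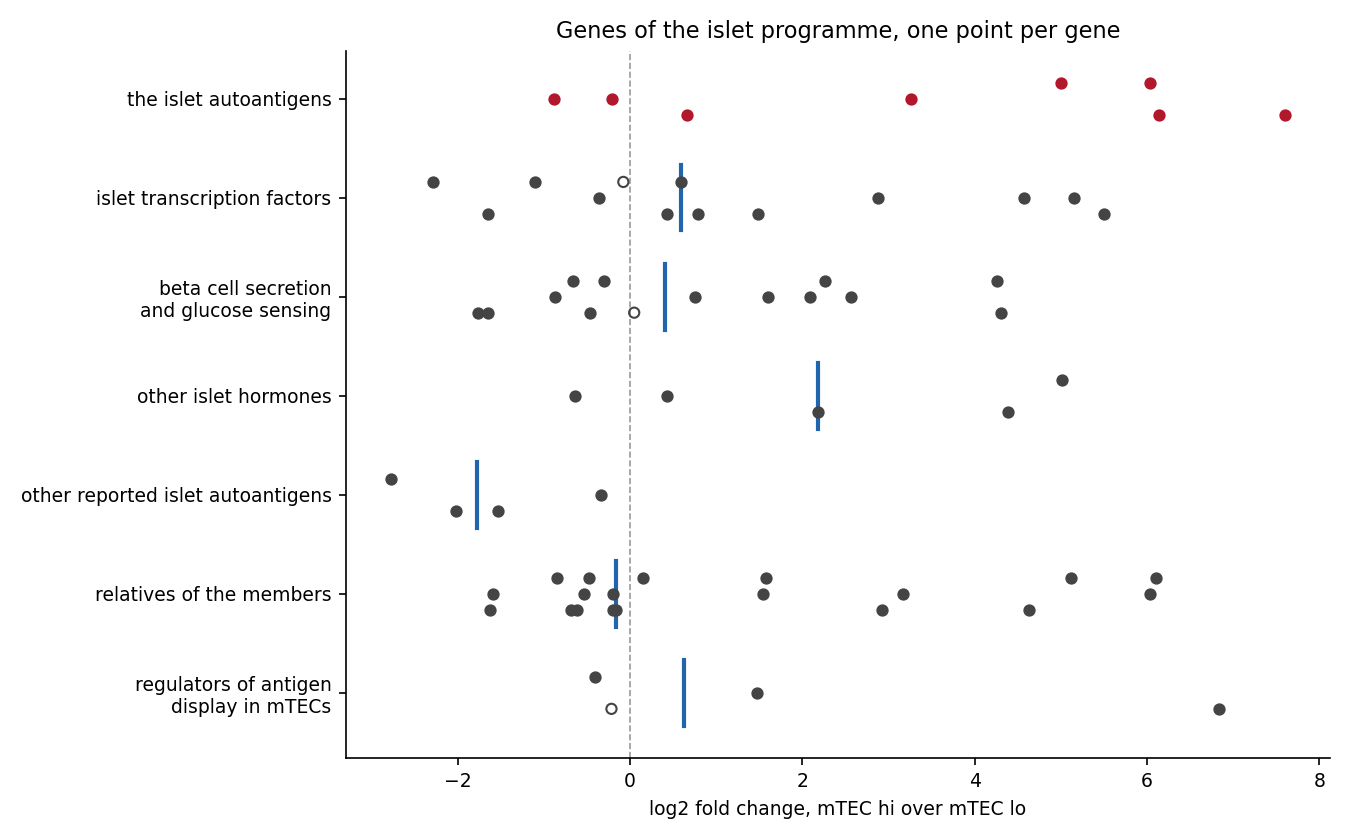
Log2 fold change of mTEC hi over mTEC lo (horizontal axis) for each gene, 1 point per gene, in the islet autoantigens that passed the low-count filter (red) and 6 lists of related genes (grey). Filled points passed the test, open points did not, and blue bars are list medians, from -1.77 for the other reported islet autoantigens to 2.19 for the other islet hormones.

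Markers of other cells also differed between mTEC hi and mTEC lo, and their part in the results was not tested. Of all genes tested 44.2% passed higher and 38.0% lower, and the marker counts are to be read beside these shares. Markers near 0 in mTEC lo, such as Pnlip with 9 reads there in all, passed the filter only through mTEC hi. Of 8 pancreatic acinar genes 7 were tested and all 7 were higher in mTEC hi, with summed levels of 72.3 to 91.9 CPM in mTEC hi against 4.50 to 12.6 CPM in mTEC lo, where Cpa1 and Amy2b had no read. Of 4 pancreatic duct genes 2 were higher and 2 lower, with sums of 186.9 to 222.4 CPM in mTEC hi against 451.1 to 521.5 CPM in mTEC lo. Of 7 neuronal genes 4 were higher, 2 lower and 1 not called, with sums of 582.5 to 668.3 CPM in mTEC hi against 310.6 to 352.2 CPM in mTEC lo. No neuronal marker was at 0.

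All 4 B cell genes and all 4 genes of dendritic cells and macrophages were higher in mTEC hi. B cell sums were 26.2 to 30.6 CPM in mTEC hi against 0.562 to 2.19 CPM in mTEC lo. The sums for dendritic cells and macrophages were 55.8 to 68.0 CPM in mTEC hi against 3.45 to 7.84 CPM in mTEC lo. Of 5 thymocyte genes 3 were higher and 2 were not called, with sums of 20.8 to 79.0 CPM in mTEC hi against 11.7 to 38.7 CPM in mTEC lo. All 4 tuft cell genes were lower in mTEC hi, with sums of 171.3 to 239.2 CPM in mTEC hi against 818.3 to 1198 CPM in mTEC lo. No marker on these 4 lists was at 0 in either cell type.

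For each autoantigen that passed the filter, the 2 protein-coding genes nearest in pattern were found among 15538 genes whose mean reached 1 CPM. Nearness was the root mean square difference of log2(CPM + 0.5) over the 12 libraries, after subtracting the mean of each gene. It describes these libraries only, and 12 libraries of 2 cell types share the difference between the types. Nearest to Ins2 were Gh, growth hormone (0.103), and Pck1, an enzyme of gluconeogenesis (0.110). The added 0.5 CPM exceeds the Ins2 level in mTEC lo and flattens its pattern. The log2 fold changes of Gh and Pck1 were 5.19 and 4.26, against 6.14 for Ins2. Nearest to Gad1 were Raet1e (0.0914) and Adh6a (0.105), and nearest to Iapp were Cpe, the carboxypeptidase that trims prohormones (0.0960), and Tmem126a (0.0977). Fry (0.0884) and Ablim1 (0.0962) were nearest to Ptprn2, and Abca7 (0.123) and Casz1 (0.129) to Ptprn. For the genes that were low in both cell types the added 0.5 CPM flattens the pattern further. Slc30a8 was nearest to Esrrg (0.0934) and Fam122b (0.0959) and G6pc2 to Ctsk (0.0907) and Papss2 (0.0994). The log2 fold changes of these nearest genes were between 1.57 and 1.68. Gad2 was nearest to S100a4 (0.180) and Mindy4 (0.197), the loosest match of the 8.

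The second question of the design was whether loss of Psmb11 changed these transcripts. No autoantigen passed the test between Psmb11-deficient and WT libraries in mTEC hi, where 0.00375% of 26642 genes passed, nor in mTEC lo, where 0.015% passed, 0.00375% higher and 0.0113% lower (edgeR quasi-likelihood test, 4 groups of 2 libraries in 1 model). DESeq2 called none of them either. With 2 libraries against 2, an exact permutation test cannot go below p = 0.333, so values and standard errors are given. A p that misses the threshold does not show equal levels.

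In mTEC hi, Ins2 had 9.23 and 9.45 CPM in Psmb11-deficient and 8.40 and 9.56 CPM in WT libraries. The WT libraries lay on both sides of the Psmb11-deficient ones, and the log2 fold change was 0.07 (SE 0.202, adjusted p = 1). Gad1 had 50.5 and 45.7 CPM in Psmb11-deficient and 49.5 and 48.2 CPM in WT libraries (log2 fold change -0.02, SE 0.110). The Gad1 groups overlapped too.

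Iapp had 35.4 and 35.8 CPM in Psmb11-deficient and 27.5 and 34.0 CPM in WT mTEC hi libraries. G6pc2 had 1.197 and 0.932 CPM in Psmb11-deficient and 0.724 and 0.918 CPM in WT libraries. For these 2 genes of the 9 the groups did not overlap, a share to be read beside 36.2% of all genes tested. Their log2 fold changes were 0.22 (SE 0.133) for Iapp and 0.40 (SE 0.488) for G6pc2, and neither passed (adjusted p = 1 for both). With each library left out in turn they ranged between 0.076 and 0.38 for Iapp and between 0.20 and 0.57 for G6pc2.

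Over all 9 genes in mTEC hi, 3 had a fold change above 0 and 6 below, none exceeded 0.40 in size on the log2 scale, and the standard errors lay between 0.110 and 0.932. The widest belonged to Ins1, with 25 reads in Psmb11-deficient and 29 in WT libraries. At an unadjusted p under 0.05 there was no autoantigen in mTEC hi, beside 918 of all genes (3.45%). The log2 fold change of each of Ptprn, Ptprn2, Gad2 and Slc30a8 was below 0 and smaller in size than its standard error, and their groups overlapped.

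In mTEC lo, Ins2 had 0.217 and 0.121 CPM in Psmb11-deficient libraries (14 and 7 reads) and 0.0536 and 0.0363 CPM in WT libraries (3 and 2 reads). The groups did not overlap, but the counts were small. The log2 fold change was 1.87 (SE 0.558) with an unadjusted p of 0.00519 in the edgeR fit and an adjusted p of 0.265. The libraries with conflicting labels had 0.132 CPM (titled WT) and 0.172 CPM (titled knockout) of Ins2, both within the Psmb11-deficient range. With genotype taken from the title for all libraries the value was 1.204, and from the source name 0.84. With each library left out in turn it ranged between 1.38 (without Psmb11-deficient mTEC lo replicate 1) and 2.21 (without Psmb11-deficient mTEC lo replicate 2). The highest value over the alternatives was 3.29, with the second strand column, and the lowest adjusted p was 0.0938 in the edgeR fit.

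Ptprn had 7.25 and 6.87 CPM in Psmb11-deficient and 10.7 and 7.87 CPM in WT mTEC lo libraries (log2 fold change -0.40, SE 0.180, adjusted p = 0.428). Ptprn2 had 40.1 and 52.0 CPM in Psmb11-deficient and 56.9 and 59.8 CPM in WT mTEC lo libraries (log2 fold change -0.35, SE 0.135, adjusted p = 0.357). Both were lower in each Psmb11-deficient library than in each WT library without passing. Ptprn2 and Ptprn were at 64.4 and 11.7 CPM in the mTEC lo library titled WT with conflicting labels, and at 52.9 and 8.01 CPM in the one titled knockout. With single mTEC lo libraries left out, the Ptprn value lay between -0.59 (without WT replicate 3) and -0.18 (without WT replicate 2). The Ptprn2 value lay between -0.55 (without Psmb11-deficient replicate 2, adjusted p = 0.0619 in the edgeR fit) and -0.17 (without Psmb11-deficient replicate 1).

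Of the 6 autoantigens with a fold change in mTEC lo, 2 were above 0 and 4 below, and 3 had groups that did not overlap, beside 36.2% of all genes. These 3 (Ins2, Ptprn and Ptprn2) also had an unadjusted p under 0.05 in the edgeR fit, as had 3010 of all genes (11.3%). Gad1 was at -0.01 (SE 0.126), Iapp at -0.10 (SE 0.132), and Gad2, with 7 reads in Psmb11-deficient and 4 in WT libraries, at 0.62 (SE 0.979). Slc30a8 had 2 reads in Psmb11-deficient and none in WT mTEC lo libraries, and Ins1 and G6pc2 had none in either, so no fold is given.

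**Figure D4:**
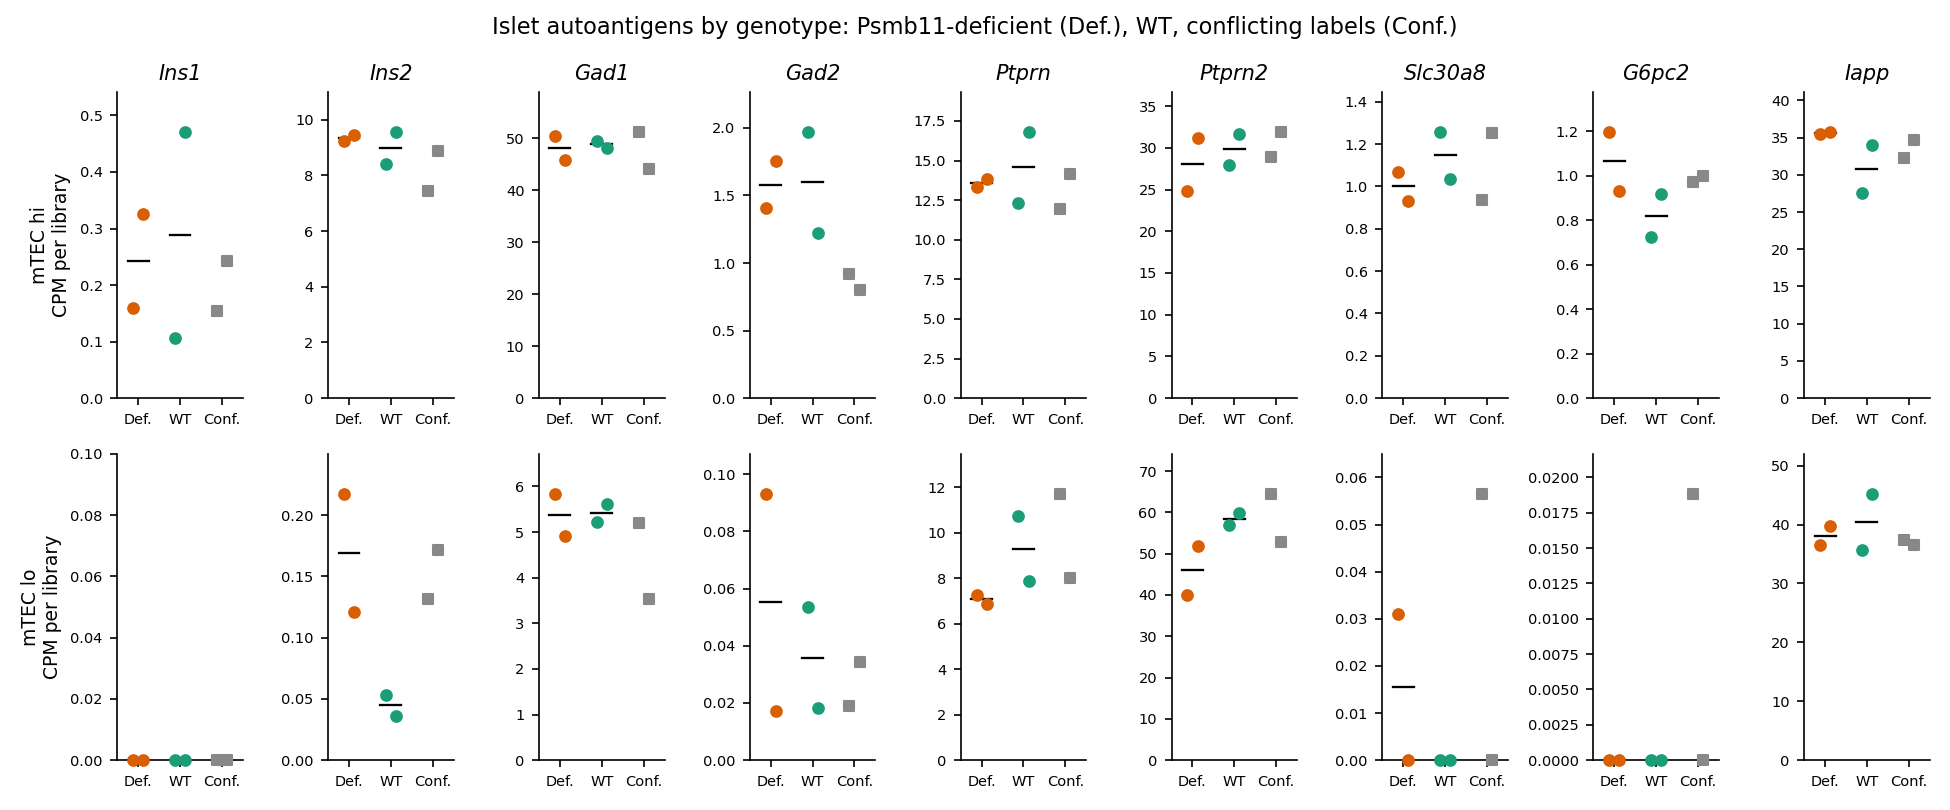
Level of each islet autoantigen in CPM (vertical axes, each from 0) in Psmb11-deficient (orange), WT (green) and conflicting-label (grey squares) libraries, in mTEC hi (top row) and mTEC lo (bottom row), with bars at the means of 2 libraries. In mTEC hi the Psmb11-deficient and WT groups overlap for 7 genes. In mTEC lo Ins2 is at 0.217 and 0.121 CPM in Psmb11-deficient and 0.0536 and 0.0363 CPM in WT libraries, Ptprn and Ptprn2 lie lower in each Psmb11-deficient library, and none of these differences passed the test.

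The difference between the genotype effects in mTEC hi and in mTEC lo was tested in the same model, and passed for no autoantigen and for none of the 26642 genes (0.0%; 1174 at an unadjusted p under 0.05 in the edgeR fit). A value is given for the 6 autoantigens with more than 3 reads in each cell type. The largest of these was that of Ins2, -1.81 on the log2 scale (SE 0.597), the effect in mTEC hi being the smaller. In the edgeR fit the unadjusted p of Ins2 was 0.00975 and the adjusted p was 1.0. For Gad1 the difference was -0.00015 (SE 0.172).

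No gene on the 6 lists of related genes passed between genotypes in either cell type. The lowest p in mTEC lo among them was that of Gcg, glucagon, with a log2 fold change of -1.28 in Psmb11-deficient libraries (adjusted p = 0.0821), and Chga was at -0.57 (adjusted p = 0.167). The other genes of lowest p on their lists in mTEC lo were Rfx6 (-0.57, adjusted p = 0.259), Abcc8 (-0.32, adjusted p = 0.293), G6pc (3.28, adjusted p = 0.307) and Chd4 (-0.23, adjusted p = 0.564). In mTEC hi they were Pax6 (-0.52), Cpe (0.36), Ghrl (0.50), Tspan7 (0.19), Csad (0.14) and Aire (-0.21), each with an adjusted p of 1. Thymocyte markers summed to 26.9 and 79.0 CPM in Psmb11-deficient and 20.8 and 22.4 CPM in WT mTEC hi libraries, and to 21.9 and 38.7 CPM in Psmb11-deficient and 11.7 and 12.9 CPM in WT mTEC lo libraries. Acinar markers summed to 4.97 and 12.6 CPM in Psmb11-deficient and 4.50 and 6.58 CPM in WT mTEC lo libraries. Neuronal markers there summed to 310.6 and 329.1 CPM in Psmb11-deficient and 344.4 and 352.2 CPM in WT libraries. In the same order, tuft cell markers summed to 1012 and 1066 against 1153 and 1173 CPM. B cell markers summed to 1.40 and 2.19 against 0.562 and 1.32 CPM, and mTEC markers to 7444 and 8228 against 6810 and 7404 CPM. The sums for duct and for dendritic cells and macrophages overlapped in mTEC lo. Their part in the genotype values was not tested.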

How the data were processed

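For each of 12 mTEC libraries the authors deposited raw read counts, 1 column without regard to strand and 1 for each strand. They also deposited expected counts, the estimated counts of RSEM, and TPM per gene. CASAVA 1.8.2, STAR 2.5.1b, RSEM 1.2.28 and, although the identifiers are those of mouse genes, the build GRCh38 are named in the submitters' processing notes. No source used here names the annotation. Each strand column held about equal shares of the reads (50.4% to 50.8% in the first), so the column without strand was used. RSEM totals were 0.507 to 0.535 of the read totals, and the RSEM share of a gene followed its second strand column (Spearman 0.330 to 0.457 across genes), so TPM may rest on reads of 1 strand. Reads assigned to no gene were 21.5% to 27.8% and stayed out of library sizes.

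Identifiers were matched to GENCODE M21 (GRCm38) for 50376 of 50600. Counts were fitted over all genes with edgeR 4.0.16 in R 4.3.3 (TMM, filterByExpr with count minimum 10 and total minimum 15, quasi-likelihood F test, Benjamini-Hochberg, threshold 0.05), cell types over 12 libraries with genotype class as covariate and genotypes over 8 libraries. Common dispersions had square roots of 0.115 and 0.125. Standard errors are the fold change divided by the square root of F. Ins1 was tested by an exact permutation test (SciPy 1.17.1). Floors are 3 reads. Alternatives were DESeq2 1.42.0, other scalings, RSEM expected counts rounded to whole numbers, no filter, labels from title or source name, blocks and leaving out each library. The second strand column was added after the data were seen.

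The 9 genes and all lists were chosen with earlier results of these data known. The rule for named genes takes all 9 genes, the 2 nearest genes of each, the 2 called genes of largest change per list, and the gene of lowest p per list for the genotypes. Promoters are from RefSeq (GRCm38.p6), and coding sequences from GENCODE M21, aligned with Biopython 1.88.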

Additional observations from a re-analysis of the deposited data

Results flagged for a closer look

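G6pc2 in mTEC lo had 1 library apart from the others: the library with conflicting labels and replicate number 1 stood at 0.0188 CPM, from 1 read, and the other 5 had no read. It was the only outlier among the 17 groups of 6 libraries examined. With the other 5 libraries at 0, a single read is flagged whatever its level. The usual rate of about 1 group in 20 flagged by chance therefore does not apply here. In mTEC hi, G6pc2 had at least 39 reads in every library.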

How the results depend on the processing

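For mTEC hi against mTEC lo, 6 to 9 of the 9 autoantigens passed under the 24 alternatives, against 8 in the main fit. Of all genes, 12958 of 23923 passed at a minimum change of 1.5-fold (6 autoantigens), and 24334 of 42255 passed without the filter (9 autoantigens). Ins2, Gad1, Gad2, Slc30a8, G6pc2 and Ptprn2 kept their direction and their call under each of them. The 2 fits with a replicate block (title number, and title pair) gave 8 each. Libraries with the same title correlated at 0.0091 to 0.239, with 2 of 6 over 0.1, beside -0.176 to 0.187 for libraries of different titles. Of the 6 mTEC hi libraries, 3 correlated best with their own title. These values do not decide whether the titles pair the libraries. Ptprn lost its call at a minimum change of 1.5-fold, and so did Iapp. Iapp also lost it under RLE size factors (-0.15, adjusted p = 0.0727), DESeq2 (-0.15, 0.0867), RSEM counts (-0.14, 0.131) and the second strand column (-0.15, 0.0838), and turned to 0.074 with library size alone. Its adjusted p ranged from 0.00230 to 1.0 over the alternatives. Slc30a8 was at 4.97 with RSEM counts and 5.27 with the second strand column, and G6pc2 at 8.80 and Slc30a8 at 6.66 in the 8 libraries with undisputed genotype.

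Between genotypes no autoantigen was called under any alternative, and values near 0 changed sign. In mTEC hi Ins1 was at 0.38 with RSEM counts, 0.37 with the second strand column, 0.051 with genotype from the title and 1.53 with the title number as replicate block. With genotype from the source name Ins2 was at -0.041, Gad1 at 0.055 and Gad2 at 0.022. With genotype from the title Ptprn was at 0.016 and Slc30a8 at 0.015. Slc30a8 was at 0.35 with RSEM counts and 0.20 with the second strand column, and Ptprn2 at 0.16 with the replicate block. In mTEC lo Gad1 was at 0.0019 with RLE size factors, 0.0021 with DESeq2, 0.016 with the second strand column and 0.16 with genotype from the source name, and Iapp was at 0.12 with the replicate block. With each library left out in turn, values in mTEC hi ranged from -0.96 to 1.16 for Ins1, from -0.026 to 0.16 for Ins2, from -0.090 to 0.057 for Gad1, from -0.31 to 0.37 for Gad2, from -0.30 to 0.15 for Ptprn and from -0.25 to 0.075 for Ptprn2. In mTEC lo they ranged from -0.14 to 0.10 for Gad1, from -0.97 to 1.52 for Gad2 and from -0.28 to 0.11 for Iapp. The cause of these changes was not tested.

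Read depth limits the mTEC lo values of Ins1, Ins2, Gad2, Slc30a8 and G6pc2, which rest on 43 reads or fewer per gene, and with them the genotype values there. In mTEC lo no fold is given between genotypes for Ins1, Slc30a8 and G6pc2.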
